A study of Mus musculus with 4 samples.

Results

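Pluripotency of mouse embryonic stem (ES) cells was followed here through 10 genes: the transcription factor genes Pou5f1, Nanog, Sox2 and Sall4, the chromatin-linked genes Utf1, Dppa2 and Dppa4, and the ES cell markers Dppa5a, Tdh and Fbxo15. They were taken by name, 10 of the 22408 genes in the tables, and all 14 of their transcript rows were used. The values are FPKM (fragments per unit of transcript length and of sequencing depth), summed over the transcript rows of a gene. Each group is 1 library of poly(A) RNA, so no difference below has a replicate check and none was tested.

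The ES cells came from a mixed C57BL/6 and 129Sv background, had been passaged fewer than 20 times according to the labels, and were grown in medium with fetal bovine serum and leukemia inhibitory factor. The 4 groups were p53+/+ cells left untreated, p53+/+ cells given 0.5 uM Adriamycin for 8 h, p53-/- cells left untreated and p53-/- cells given the same treatment. Adriamycin (doxorubicin) is a topoisomerase II poison that breaks DNA, and p53 is the transcription factor that such damage activates. The labels name neither the p53 alleles nor the number of ES cell lines or clones, and they mention an exome enrichment kit, whose effect on the values was not tested.

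OCT4 (the product of Pou5f1), SOX2 and NANOG are DNA-binding proteins that hold ES cells in the self-renewing state and activate one another's genes as well as their own. OCT4 and SOX2 bind side by side at composite sites, and genes such as Nanog, Utf1 and Fbxo15 carry such sites in their regulatory regions. NANOG varies from cell to cell in serum cultures and can be lost from single cells without loss of OCT4. In mouse ES cells p53 has been described to bind at the Nanog promoter and to lower Nanog after DNA damage.

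The libraries held 3.34 to 4.32 gigabases of aligned sequence, and 11424 to 12292 genes had 1 FPKM or more. The transcripts of Trp53 summed to 216 and 165 FPKM without and with Adriamycin in p53+/+ cells and to 78.6 and 76.5 FPKM in p53-/- cells, lower there but not absent. Of 10 p53 target genes used as a check of the labels, 10 were higher by at least 1 on the log2(FPKM + 1) scale after treatment in p53+/+ cells and 0 in p53-/- cells. The pluripotency genes checked the label of ES cells, all 10 standing at 21.7 FPKM or more in every library.

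Dppa5a was the most abundant of the 10 per transcript length in every library, followed by Pou5f1 and Utf1, and Dppa2 was the least abundant. By the midpoints of the deposited confidence bounds the first places turned in treated p53-/- cells, with Pou5f1 at 674 and Dppa5a at 645 FPKM. The least abundant member ranked between 1570th and 3478th among the genes of its library, and Dppa5a between 10th and 32nd. Places 4 to 7 of the order changed. Nanog was 4th in untreated p53+/+ cells and in both p53-/- libraries, but 6th in treated p53+/+ cells, where Sox2 and Tdh stood above it. In that treated library Sall4 (46.3 FPKM) and Dppa4 (45.5 FPKM) lay close together and the deposited confidence bounds of their main transcripts overlapped, as did those of Sox2 (122 FPKM) and Fbxo15 (121 FPKM) in untreated p53-/- cells.

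**Figure D1:**
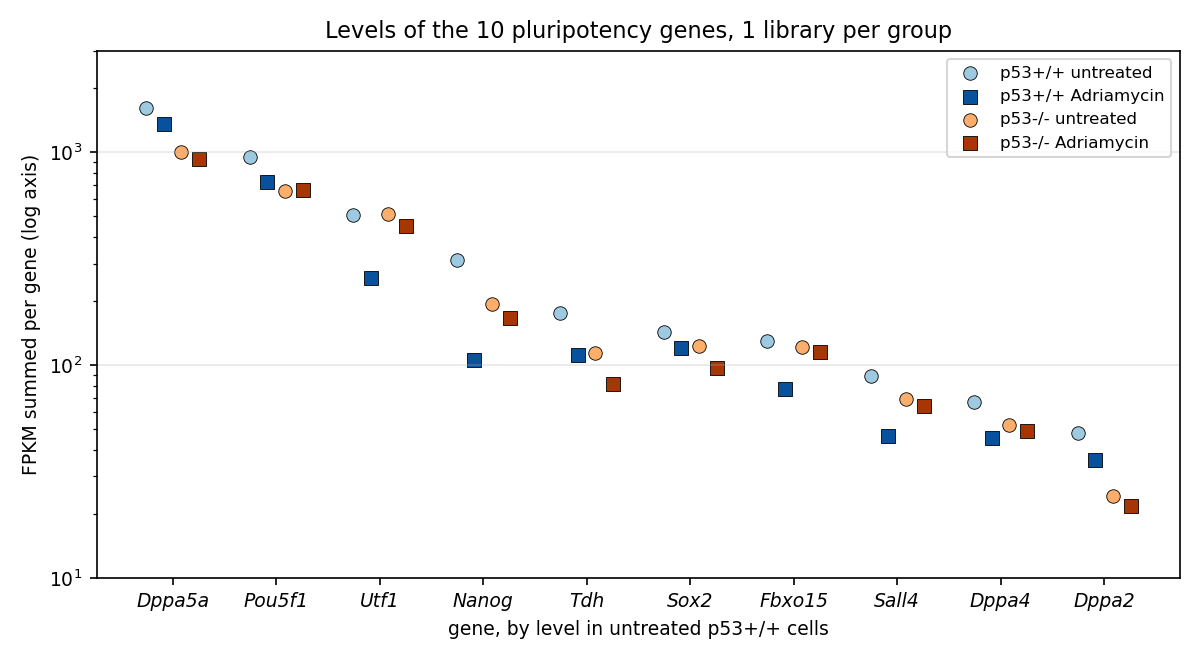
FPKM summed per gene (log axis) for the 10 genes in the 4 libraries, 1 point per library, ordered by the level in untreated p53+/+ cells. Untreated p53+/+ cells gave the highest value for 9 of the 10 genes, and treated p53+/+ cells the lowest for 5, among them Nanog at 105 FPKM.

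The summed level of the 10 genes was 4032 FPKM in untreated p53+/+ cells, 2876 FPKM in treated p53+/+ cells, and 2867 and 2639 FPKM without and with Adriamycin in p53-/- cells. Untreated p53+/+ cells held the highest value of 9 genes, the exception being Utf1. The lowest value lay in treated p53+/+ cells for 5 genes (Nanog, Sall4, Utf1, Dppa4 and Fbxo15), in treated p53-/- cells for 4 (Sox2, Dppa2, Dppa5a and Tdh) and in untreated p53-/- cells for Pou5f1.

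Counting error was small beside these values. The mean read coverage of a member's main transcript ran from 96.3 to 8544 reads per base, and the deposited confidence bounds spanned 1.54% to 10.1% of their midpoint on either side. These bounds cover counting and assignment error in a library only. For 6 of the 10 genes (Nanog, Sox2, Utf1, Dppa5a, Tdh and Fbxo15) the deposited FPKM lay above its own upper bound in all 4 libraries, by a ratio to the midpoint of up to 1.43 in Dppa5a. Within a gene that ratio varied by at most 3.76% between libraries, so it bears on levels between genes more than on differences between libraries. The FPKM of Pou5f1, Sall4 and Dppa4 lay within its bounds in every library.

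Pou5f1 encodes OCT4, the POU-domain factor without which the inner cell mass and ES cells cannot be kept. Its main transcript NM_013633 (mm9 chr17:35642977-35647722) stood at 948 FPKM without and 721 FPKM with Adriamycin in p53+/+ cells, and at 658 and 666 FPKM without and with Adriamycin in p53-/- cells. The treated p53+/+ library thus lay between the untreated p53+/+ library and the p53-/- libraries, which were nearly level. The difference in log2(FPKM + 1) between treated and untreated cells was -0.39 in p53+/+ and 0.02 in p53-/- cells. The shorter annotated transcript, NM_001252452, was at or near 0 in every library.

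Sox2 encodes the HMG-box partner of OCT4 and is a gene without introns (chr3:34548927-34551382). It read 142 FPKM without and 121 FPKM with Adriamycin in p53+/+ cells, and 122 and 97.3 FPKM in the p53-/- libraries. By the deposited FPKM, Sox2 was the gene whose responses to Adriamycin were most alike in the genotypes, at -0.24 in p53+/+ and -0.33 in p53-/- cells on the log2(FPKM + 1) scale. This ranking depended on processing. By the midpoints of the bounds Dppa5a was closer (-0.22 and -0.16, beside -0.22 and -0.34 for Sox2). After quantile normalization Tdh was closer (-0.48 and -0.41, beside -0.05 and -0.26 for Sox2). The long noncoding gene Sox2ot spans the same locus and stood between 0.177 and 0.432 FPKM.

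Nanog encodes the homeodomain factor that lets ES cells renew without leukemia inhibitory factor when it is abundant. NM_028016 (chr6:122657586-122663796) stood at 310.01 FPKM in untreated p53+/+ cells and at 105 FPKM in treated p53+/+ cells, which was 33.9% of the untreated level. In p53-/- cells it stood at 194 FPKM untreated and 166 FPKM treated, 85.5% of the untreated level. The treated p53+/+ library was the lowest of the 4 and the untreated p53+/+ library the highest, with both p53-/- libraries between them. The difference in log2(FPKM + 1) was -1.55 in p53+/+ and -0.22 in p53-/- cells, and 0.438% of the 13014 genes with at least 1 FPKM in a library had a p53+/+ difference as low or lower.

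Nanog also parted from its fellow core factors within the libraries. Its level was 32.7% of that of Pou5f1 in untreated p53+/+ cells and 14.6% in treated p53+/+ cells, against 29.5% and 24.9% without and with Adriamycin in p53-/- cells. Sox2, by contrast, stood between 14.6% and 18.6% of Pou5f1 in all 4 libraries. Nanog was not alone among the 10 genes in this. Sall4 stood at 9.39% and 6.41% of Pou5f1 without and with Adriamycin in p53+/+ cells and at 10.6% and 9.64% in p53-/- cells. Utf1 was likewise lower relative to Pou5f1 in treated p53+/+ cells. Such a ratio is the same under any scale factor applied to a whole library.

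Sall4 encodes a zinc finger factor that binds with OCT4 and NANOG and with the NuRD repressor complex. It stood at 89.0 and 46.3 FPKM without and with Adriamycin in p53+/+ cells and at 69.5 and 64.2 FPKM without and with Adriamycin in p53-/- cells. Treated p53+/+ cells were lowest, at 52.0% of the untreated level, a difference in log2(FPKM + 1) of -0.93 against -0.11 in p53-/- cells. The longest transcript, NM_175303 (chr2:168573832-168592701), carried at least 97.4% of the sum in each library, and the splice form NM_201395 went alongside it, from 1.81 to 1.22 FPKM in p53+/+ and from 1.29 to 1.17 FPKM in p53-/- cells.

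The promoters of the 4 members found in the RefSeq promoter table (assembly GRCm38.p6, each window 250 bases before to 50 bases after the annotated start) are printed for the motifs in them. Nanog and Utf1 had the largest p53+/+ differences of the 10 genes, and those of Sox2 and Pou5f1 were among the smallest. Capitals mark, on either strand, the octamer heptad TTTGCAT to which OCT4 binds, the SOX hexamer ACAATG and the GC box GGGCGG, which share no bases with each other in these windows except where 2 GC boxes of Utf1 overlap by 1 base. The letters run 5′ to 3′ on the plus strand, which is the strand of all 4 genes.
Nanog (chr6:122707315-122707614): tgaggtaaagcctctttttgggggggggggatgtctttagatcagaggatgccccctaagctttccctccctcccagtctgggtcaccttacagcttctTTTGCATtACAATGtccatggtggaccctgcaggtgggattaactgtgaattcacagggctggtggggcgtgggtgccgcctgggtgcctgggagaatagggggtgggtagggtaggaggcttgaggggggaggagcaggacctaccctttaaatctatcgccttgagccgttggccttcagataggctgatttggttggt
Sox2 (chr3:34649745-34650044): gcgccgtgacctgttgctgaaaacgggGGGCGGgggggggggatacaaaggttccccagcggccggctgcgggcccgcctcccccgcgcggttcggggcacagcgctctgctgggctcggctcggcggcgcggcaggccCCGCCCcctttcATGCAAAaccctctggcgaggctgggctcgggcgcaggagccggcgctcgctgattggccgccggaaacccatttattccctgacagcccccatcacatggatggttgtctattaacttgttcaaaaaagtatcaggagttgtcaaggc
Pou5f1 (chr17:35505782-35506081): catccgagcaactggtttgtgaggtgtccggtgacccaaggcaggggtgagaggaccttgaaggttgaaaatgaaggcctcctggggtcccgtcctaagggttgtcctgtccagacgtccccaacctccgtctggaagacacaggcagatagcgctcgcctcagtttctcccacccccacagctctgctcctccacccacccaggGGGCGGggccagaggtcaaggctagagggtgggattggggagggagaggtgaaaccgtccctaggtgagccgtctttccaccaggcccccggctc
Utf1 (chr7:139943606-139943905): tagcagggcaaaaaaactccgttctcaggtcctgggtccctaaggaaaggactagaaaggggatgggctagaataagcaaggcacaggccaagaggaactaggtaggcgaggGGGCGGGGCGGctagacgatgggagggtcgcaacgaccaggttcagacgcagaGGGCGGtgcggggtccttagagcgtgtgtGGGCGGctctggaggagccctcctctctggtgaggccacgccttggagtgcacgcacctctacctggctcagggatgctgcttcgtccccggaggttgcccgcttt

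In the Nanog promoter the heptad and the hexamer are 1 base apart, from 151 to 138 bases upstream of this start, so that together they spell the composite TTTGCATNACAATG. Of 32851 promoter windows of 300 bases in the table, 2 (0.00609%) hold this exact composite, and both are windows of Nanog, which has 2 annotated starts. The heptad alone is in 4.63% of windows, and the Sox2 window holds it on the minus strand 99 to 93 bases upstream, with no SOX hexamer. The hexamer alone is in 12.6% of windows. The Pou5f1 window shown holds neither but has a GC box 45 to 40 bases upstream, and Utf1 has 4 GC boxes, a motif found in 35.7% of windows. Sox2 has GC boxes 223 to 218 and, on the minus strand, 111 to 106 bases upstream. Another Pou5f1 window, not shown (chr17:35508557-35508856), holds the hexamer 158 to 153 bases upstream of its start. TATAAA, in 13.6% of windows, was in none of the 4. The Sox2 window is the richest in CpG, with 27, against 17 in Utf1, 11 in Pou5f1 and 4 in Nanog, and a median of 7 over all windows. A match in letters is no measure of binding, and letters that were not found say nothing of the factor.

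Utf1 encodes a chromatin-associated factor found almost only in pluripotent and germ cells. NM_009482 (mm9 chr7:147129755-147131011) stood at 506 FPKM without and 257 FPKM with Adriamycin in p53+/+ cells, and at 514 and 453 FPKM without and with Adriamycin in p53-/- cells. The treated p53+/+ library stood apart at 50.8% of its untreated partner, while the other 3 libraries lay between 453 and 514 FPKM. The differences in log2(FPKM + 1) were -0.97 in p53+/+ and -0.18 in p53-/- cells. Relative to Pou5f1, Utf1 was at 53.3% and 35.7% without and with Adriamycin in p53+/+ cells and at 78.1% and 67.9% in p53-/- cells.

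Dppa2 and Dppa4 lie next to each other on chromosome 16, 15981 bases apart in mm9, and encode SAP-domain proteins that work as a pair on chromatin and help to keep developmental promoters open to later activation. Dppa2 (NM_028615, chr16:48310387-48319626) stood at 48.0 and 35.7 FPKM without and with Adriamycin in p53+/+ cells and at 24.1 and 21.7 FPKM without and with Adriamycin in p53-/- cells. Its values divided by genotype, both p53+/+ libraries lying above both p53-/- libraries. Dppa4 (NM_028610, chr16:48283848-48294405) stood at 66.7 and 45.5 FPKM in p53+/+ and at 52.1 and 48.9 FPKM in p53-/- cells. It was highest in untreated p53+/+ cells and nearly level in the other 3 libraries, so the neighbours did not follow one pattern. The log2(FPKM + 1) difference between untreated genotypes was -0.96 for Dppa2 and -0.35 for Dppa4.

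Dppa5a encodes a small KH-domain RNA-binding protein that marks ES cells. NM_025274 (chr9:78214861-78216006) stood at 1617 and 1357 FPKM without and with Adriamycin in p53+/+ cells and at 998 and 926 FPKM without and with Adriamycin in p53-/- cells. Both p53+/+ libraries lay above both p53-/- libraries, as for Dppa2. Its difference after Adriamycin was -0.25 in p53+/+ and -0.11 in p53-/- cells on the log2(FPKM + 1) scale.

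Tdh encodes mitochondrial threonine dehydrogenase, which begins the breakdown of threonine and on which mouse ES cells depend for one-carbon units. NM_021480 (chr14:64111184-64127929) stood at 175 and 111 FPKM without and with Adriamycin in p53+/+ cells and at 114 and 81.4 FPKM without and with Adriamycin in p53-/- cells. It was lower after treatment in both genotypes, to 63.6% and 71.5% of the untreated level, and had the largest p53-/- response of the 10, at -0.48. Of 10 other enzymes of threonine and glycine use, 0 were past 1 in either direction in either response, nor was Tdh. Of all genes, 14.2% were past it in the p53+/+ and 0.838% in the p53-/- response. In the p53+/+ response 9 of the enzymes were below 0 and 1 above, with a median of -0.31. Mthfd2 (-0.74), Shmt1 (-0.71) and Mthfd1l (-0.70) were lower there by more than Tdh (-0.65), and Mthfd1 was higher (0.59). Gcat, the ligase that acts after Tdh, stood at 42.03 and 30.9 FPKM in p53+/+ and 42.6 and 38.4 FPKM in p53-/- cells.

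Fbxo15 encodes an F-box protein known as a target of OCT4 and SOX2, and ES cells renew without it. NM_015798 (chr18:85104417-85150784) stood at 130.3 and 77.0 FPKM without and with Adriamycin in p53+/+ cells and at 121 and 116 FPKM without and with Adriamycin in p53-/- cells. The treated p53+/+ library was the one apart, at 59.1% of its untreated partner, a pattern like that of Utf1. The mitochondrial import gene Timm21, whose locus overlaps that of Fbxo15 in the tables, was higher after treatment, at 7.94 and 10.8 FPKM in p53+/+ and 3.75 and 4.70 FPKM in p53-/- cells. Whether the counting used strand was not given in the sources used here, so reads of overlapping genes cannot be told apart with certainty.

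Several members have near-identical copies in the genome. GENCODE release M21 annotates pseudogenes matching the transcript over at least 200 bases at 90% identity or more for Dppa5a (8), Dppa2 (6), Dppa4 (2), Nanog (1) and Tdh (1), the longest over 1125 bases at 97.1% for Tdh, and 0 for Pou5f1, Sox2, Sall4, Utf1 and Fbxo15. Of these pseudogenes 1 has a row of its own, Gm6083 for Dppa5a, which stood at 67.3 and 31.2 FPKM without and with Adriamycin in p53+/+ cells and at 26.4 and 148 FPKM without and with Adriamycin in p53-/- cells. It was higher after treatment in p53-/- cells, where Dppa5a was slightly lower. By the same limits Dppa5a also matches the protein-coding gene Pigp, which has a row, over 417 bases at 95.9%. Nanog matches transcripts of 40 genes in all, over 200 to 245 bases, many of them with rows. The Nanog transcript searched was 2211 bases long and the deposited one 1356 bases. Whether these matches lie within the deposited transcript was not tested. Sall4 matches Gm14261, which has no row, over 293 bases at 100%. How reads were shared between such sequences was not tested, so levels of all members with a match carry that uncertainty.

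All 10 genes were lower with Adriamycin than without it in p53+/+ cells. The median difference in log2(FPKM + 1) was -0.59, beside 0.05 over all 13014 genes, and members ran from -0.24 (Sox2) to -1.55 (Nanog). Over genes that reached 20 FPKM in a library, as all 10 did, the median was -0.14. Of those genes 4.56% were lower and 9.11% higher by at least 1. Nanog was the only member lower by at least 1, and 0 were higher by at least 1, where 2.78% of all genes were lower and 11.4% higher by that step (4.74% and 8.44% after quantile normalization). Utf1 (-0.97) and Sall4 (-0.93) lay just short of it, and Utf1 was past it, at -1.03, after median-of-ratios scaling. Next came Fbxo15 (-0.75), Tdh (-0.65) and Dppa4 (-0.54), and the abundant Dppa5a (-0.25) and Pou5f1 (-0.39) were with Sox2 at the small end. A drop in the share of pluripotent cells and less RNA per cell cannot be told apart in bulk samples, here or below. Levels set against Pou5f1 show that the members were lowered unequally: Sox2 and Dppa5a were higher relative to Pou5f1 after treatment, at 15.0% and 16.7% for Sox2 and 171% and 188% for Dppa5a, and the other 7 were lower relative to it.

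Differences were small where p53 was lacking. The median of the 10 genes was -0.13 beside 0.07 over all genes, with 9 below 0 and Pou5f1 at 0.02 (below 0 after upper quartile and median-of-ratios scaling), and 0 members were past 1 in either direction, where 0.461% of all genes were lower and 0.377% higher (0.446% and 0.815% after rescaling to TPM, where every library has the same total FPKM). Tdh (-0.48) and Sox2 (-0.33) had the largest differences, and Nanog (-0.22) and Utf1 (-0.18) followed. After rescaling to TPM 7 members were below 0 and 3 above, and after quantile normalization 6 and 4, so the direction of small p53-/- differences depended on scaling.

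**Figure D2:**
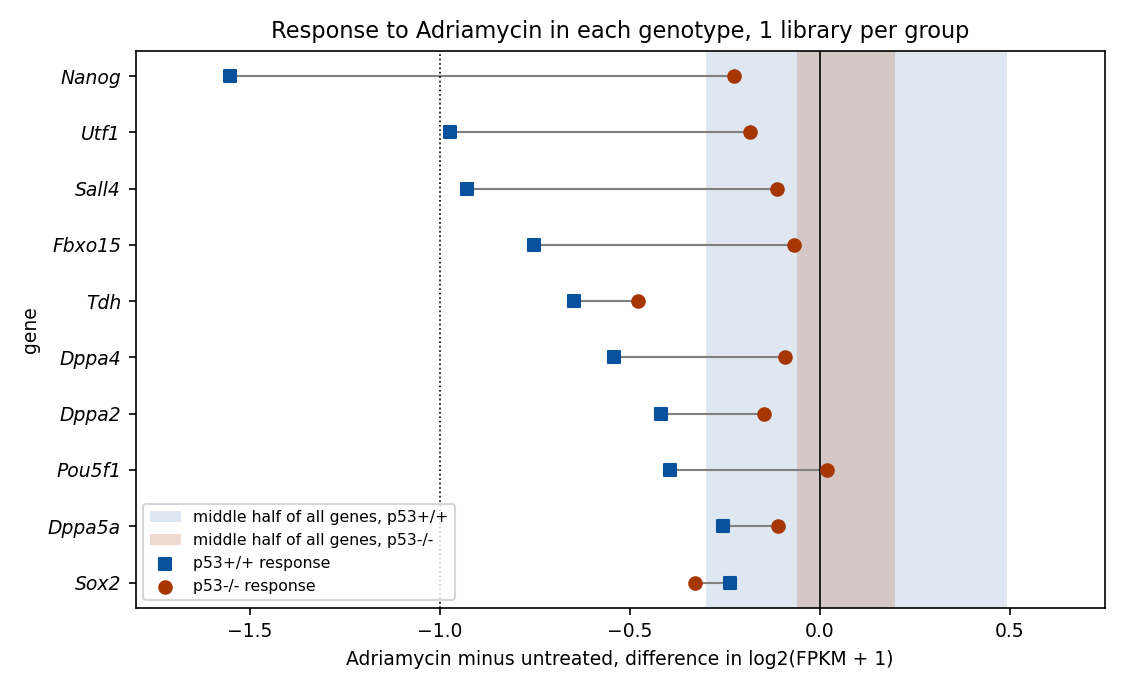
Difference in log2(FPKM + 1) between treated and untreated cells for each gene, squares for p53+/+ and circles for p53-/- cells, with the interquartile range of all genes shaded for each genotype and a dotted line at -1. Nanog is the only gene beyond the dotted line, at -1.55, and Sox2 the only gene whose p53-/- value lies to the left of its p53+/+ value, an order that flips after TPM.

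The p53+/+ response minus the p53-/- response had a median of -0.43 over the 10 genes and -0.01 over all genes. Over genes that reached 20 FPKM in a library the median was -0.12. Nanog was past 1, at -1.33, the only member so, and 0 were past it in the other direction, where 3.29% of all genes were at -1 or less and 10.4% at 1 or more (6.42% and 12.0% after TPM, 4.81% and 8.85% after quantile normalization). Sall4 (-0.82), Utf1 (-0.79) and Fbxo15 (-0.69) followed, while Tdh (-0.17), Dppa5a (-0.14) and Sox2 (0.09, or -0.01 after TPM) were nearest to 0. Under the alternatives the value of Dppa5a reached -0.38. After quantile normalization its responses were -0.19 in p53+/+ and 0.18 in p53-/- cells. The value of Nanog minus that of Sox2 was -1.42.

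Without treatment, p53-/- cells had lower values than p53+/+ cells for 9 of the 10 genes, with a median of -0.44 beside -0.05 over all genes. No member was past 1 in either direction, where 3.14% of all genes were lower and 3.51% higher by that step. Dppa2 came closest, at 50.3% of its p53+/+ level (-0.96, or -1.06 after TPM), and Dppa5a (-0.70), Nanog (-0.67), Tdh (-0.62) and Pou5f1 (-0.53) followed. Fbxo15 (-0.10) and Utf1 (0.02) had the smallest differences, and Utf1 was below 0 after TPM and quantile normalization. This comparison, the p53+/+ response and the difference of responses all subtract the single untreated p53+/+ library, so they are not independent.

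Between treated genotypes, a comparison that does not use that library, the genes divided into 5 lower and 5 higher in p53-/- cells. Their median was -0.01, whose sign changed under 4 alternatives, beside -0.02 over all genes and 0.14 over genes that reached 20 FPKM. Utf1 (0.81), Nanog (0.65), Fbxo15 (0.58), Sall4 (0.46) and Dppa4 (0.10) were higher in p53-/- cells, and Dppa2 (-0.69), Dppa5a (-0.55), Tdh (-0.45), Sox2 (-0.31) and Pou5f1 (-0.11) lower. No member was past 1, where 13% of all genes were lower and 6.72% higher (11.1% and 9.32% after quantile normalization). Nanog thus stood at 158% of the p53+/+ level after treatment and at 62.5% before it.

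Markers of other cell types moved with genotype. Of 15 fibroblast markers, which would also mark feeder cells, 13 were higher by at least 1 in untreated p53-/- than p53+/+ cells and 14 in treated cells, with a median of 3.08 and 3.17, and 0 were lower. Their summed level was 264 and 188 FPKM without and with Adriamycin in p53+/+ cells and 824 and 742 FPKM in p53-/- cells. Vim (151 and 89.7 FPKM) and Fn1 (101 and 76.2 FPKM) made up most of the p53+/+ sums. Col3a1 and Postn were listed at 0 in both p53+/+ libraries, and all 15 markers reached 1 FPKM in both p53-/- libraries. Primitive endoderm markers summed to 146 and 156 FPKM in p53+/+ and 65.5 and 64.0 FPKM in p53-/- cells, with 7 of the 10 past the filter lower by at least 1 in untreated p53-/- cells. The part of these marker differences in the values of the 10 genes between genotypes was not tested. In untreated p53-/- cells the 10 genes ranged from 50.3% (Dppa2) to 101.6% (Utf1) of their p53+/+ levels.

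Within p53+/+ cells the fibroblast and primitive endoderm lists differed less with treatment. The fibroblast median was 0.14, with 1 of 15 markers (Col1a1) higher by at least 1, and the primitive endoderm median 0.10, with 1 of 10 higher. Trophoblast markers summed to 39.1 and 48.0 FPKM without and with Adriamycin in p53+/+ cells, with a median of 0.12 and 1 of the 6 past the filter lower by at least 1. In p53-/- cells they summed to 80.0 and 75.9 FPKM, with 3 of the 6 higher and 0 lower by at least 1 than in p53+/+ cells, both untreated and treated. The 8 mesendoderm markers summed to between 2.52 and 5.54 FPKM in the 4 libraries. Epiblast and neuroectoderm markers summed to 82.5 and 41.6 FPKM without and with Adriamycin in p53+/+ cells and to 167 and 188 FPKM in p53-/- cells. Of these sums Tubb3 alone gave 62.2, 33.2, 115 and 139 FPKM, in the same order. Of the 6 past the filter, 1 was lower and 0 higher by at least 1 in the p53+/+ response (median -0.48). In p53-/- against p53+/+ cells 3 were higher by at least 1 untreated and 5 treated, and 0 lower. The part of these markers in the p53+/+ values of the 10 genes was not tested. Genes of the 2-cell-like state, which Dppa2 and Dppa4 help to activate, summed to 492 and 742 FPKM without and with Adriamycin in p53+/+ cells and to 70.2 and 68.6 FPKM in p53-/- cells, and their near-identical copies make single values uncertain.

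**Figure D3:**
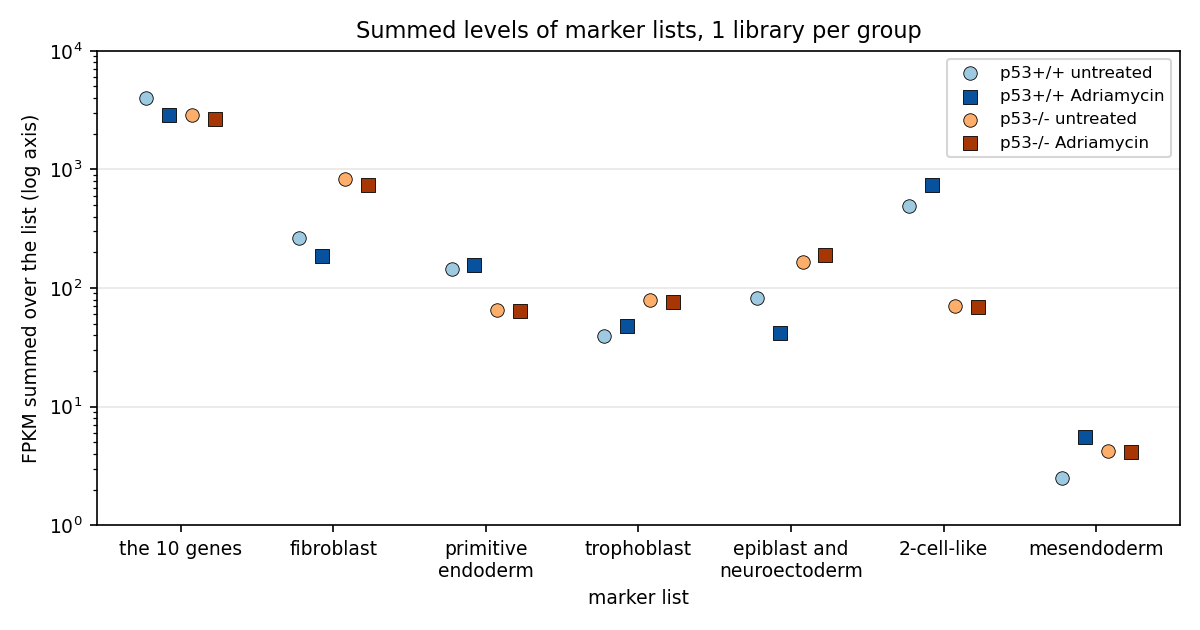
FPKM summed over each marker list (log axis) in the 4 libraries, 1 point per library. The 10 genes sum to between 2639 and 4032 FPKM, while fibroblast markers are higher in both p53-/- libraries and primitive endoderm and 2-cell-like markers lower.

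Genes around the 10 were read from lists of the same network. Of 18 other pluripotency transcription factors, 6 were lower and 0 higher by at least 1 in the p53+/+ response, with a median of -0.63, and 0 in either direction in the p53-/- response (median -0.15). The 6 included the orphan nuclear receptor gene Nr0b1 (58.1 to 10.6 FPKM in p53+/+ cells), Prdm14 (18.9 to 3.38 FPKM), which restrains FGF signalling and DNA methylation, Zfp42, known as Rex1 (289 to 84.7 FPKM), and Nr5a2 (16.7 to 4.89 FPKM), which can take the place of Oct4 in reprogramming. In p53+/+ cells these 4 all differed by more than any of the 10, with Nr0b1 at -2.35 and Prdm14 at -2.19. Zfp42 was also lower after treatment in p53-/- cells, from 307 to 164 FPKM (-0.90), just short of the step. The p53-/- response was -0.47 for Nr0b1, -0.16 for Nr5a2 and 0.0009 for Prdm14. Of 20 other ES cell markers, 6 were lower and 1 higher by at least 1 in the p53+/+ response (median -0.84), against 0 in the p53-/- response (median -0.18). The germ cell gene Tex19.1 was the higher one, from 39.4 to 86.5 FPKM, and in the p53-/- libraries it stood at 123 and then 158 FPKM.

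A list of 10 genes described as targets of OCT4 with SOX2, 5 of which are members, was mixed. In the p53+/+ response 3 were lower and 1 higher by at least 1, with a median of -0.83. The lower ones were Spp1 and, already given above, Nanog and Zfp42. Lefty1, an inhibitor of Nodal, stood at 34.3 and 126 FPKM without and with Adriamycin in p53+/+ cells and at 94.7 and 118 FPKM in p53-/- cells. The secreted phosphoprotein gene Spp1 stood at 214 and 66.3 FPKM in p53+/+ and at 353 and 364 FPKM in p53-/- cells. In the same cells Pou5f1 stood at 76.1% and Sox2 at 84.8% of their untreated p53+/+ levels.

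Partner proteins of OCT4, NANOG and SALL4, 20 proteins of NuRD, SWI/SNF, TIP60 and other complexes, had a median of -0.31 in the p53+/+ and -0.14 in the p53-/- response. Trim28, the corepressor that silences retroviral elements, was the 1 member lower by at least 1, from 989 to 469 FPKM in p53+/+ cells, and went from 892 to 720 FPKM in p53-/- cells. Among 16 measured relatives of the 10 genes, 2 were lower and 1 higher by at least 1 in the p53+/+ response. Sall1, a sister of Sall4, stood at 42.2 and 13.8 FPKM in p53+/+ and 39.3 and 27.3 FPKM in p53-/- cells. Sox15, which can bind with OCT4 as SOX2 does, stood at 28.5 and 32.4 FPKM in p53+/+ and at 16.3 and 13.1 FPKM in p53-/- cells, so it was not lower after treatment in p53+/+ cells. Reference genes had medians of -0.21 and 0.04 in the p53+/+ and p53-/- responses, with 0 of 10 lower by at least 1 in either.

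**Figure D4:**
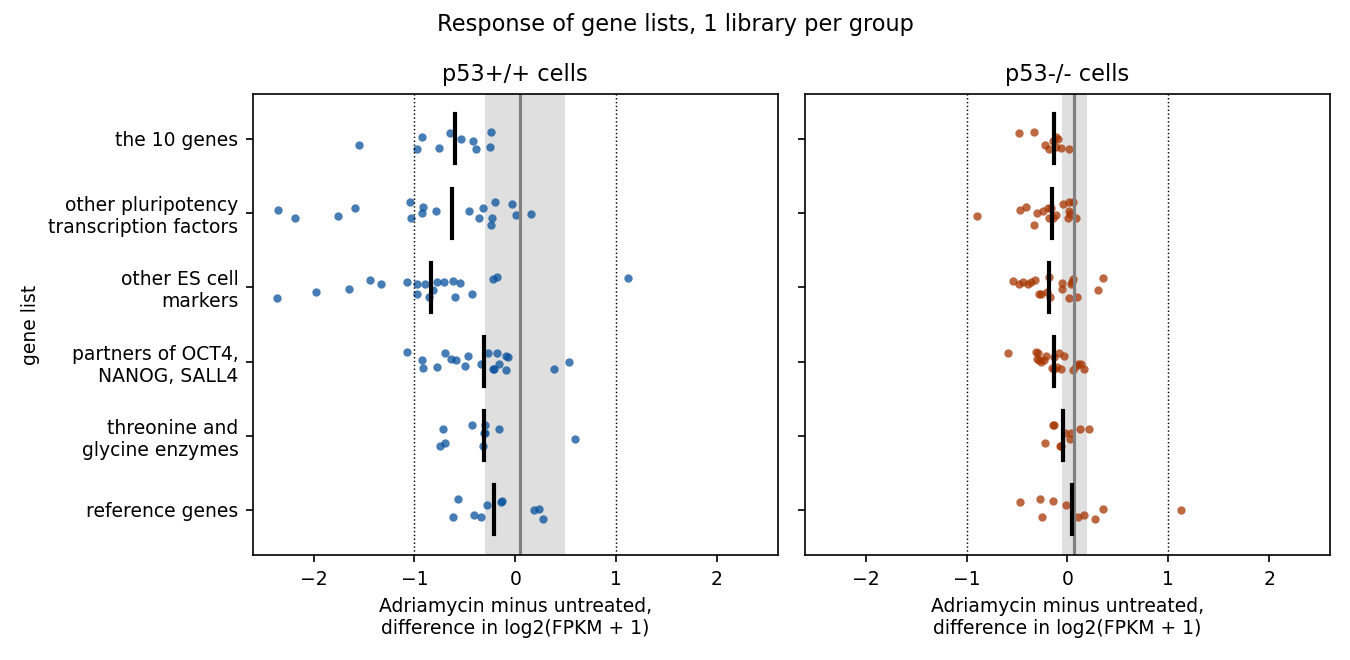
Difference in log2(FPKM + 1) between treated and untreated cells for genes of 6 lists, 1 point per gene, in p53+/+ cells on the left and p53-/- cells on the right. Black bars are list medians, the grey line and band the median and interquartile range of all genes, and dotted lines mark -1 and 1; the median of the 10 genes is -0.59 on the left and -0.13 on the right.

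The genes whose pattern over the 4 libraries was most like the median of the 10, among 6029 others with a mean of at least 10 FPKM, were Folr1, Brwd1, Mtss1, Dlgap5 and Sox12. Likeness was the Euclidean distance between log2(FPKM + 1) values centred on each gene's mean, and ran from 0.0791 to 0.0984 for these 5. Dppa4 was the member nearest to the median pattern, at 0.105, and Nanog the farthest, at 0.751, with Utf1 at 0.693 and Dppa2 at 0.642. Over 4 libraries such likeness is a description only.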

How the data were processed

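Poly(A) RNA of 4 groups with 1 library each was used, grouped by the titles in the labels. The authors deposited 1 table per library with FPKM, a lower and an upper FPKM bound, read coverage and length per RefSeq transcript, per the file headers. The coverage signal is likewise as deposited. Per the submitters' processing notes, the tools were CASAVA 1.8.1, TopHat2 2.0.5, TopHat and Cufflinks, on build mm9, without role or order. For Cufflinks a version, and for the transcripts an annotation, was not given in the sources used here.

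Gene names are absent from the tables. Of 30769 rows, 30227 were named from a RefSeq table of GRCm38.p6 and 180 from GENCODE M21, and 362 were not. That assembly served for names and sequences only, and positions are those of the tables, counted from 1. Short RNA genes (802 rows) were left out. FPKM was summed per gene, and 13014 of 22408 genes reached 1 FPKM in a library. Differences are in log2(FPKM + 1), which understates the change of low genes, and genes past a difference of 1 in size were counted. With no replicates there is no p-value or standard deviation.

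All 10 genes are reported in every library. Of each list, examples come from the up to 4 genes with the largest difference. Gcat, Sox15, Tex19.1, Gm6083, Col1a1, Col3a1, Postn, Vim, Fn1 and Tubb3 were named after their values were seen. The genes and lists were chosen with earlier results of these data known. Python 3.11.15, pandas 2.3.3, numpy 2.4.6, matplotlib 3.10.9 and blastn 2.17.0 were used. The calculation was run on simulated data, where only the counts of raised genes were required to match.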

Additional observations from a re-analysis of the deposited data

Results flagged for a closer look

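Some members differed in opposite directions under the same contrast. None of these differences was tested, since each group is 1 library. Pou5f1 was lower after Adriamycin in p53+/+ cells (-0.39) and nearly level in p53-/- cells (0.0181, or -0.0615 after median-of-ratios scaling), in log2(FPKM + 1). For 4 genes the sign of the p53-/- minus p53+/+ difference was negative in untreated cells and positive in treated cells: Nanog at -0.67 and 0.65, Sall4 at -0.35 and 0.46, Dppa4 at -0.35 and 0.10, and Fbxo15 at -0.10 and 0.58.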

How the results depend on the processing

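The alternatives were pseudocounts of 0.1 and 5 FPKM, TPM, upper quartile, median of ratios and quantile scaling, the transcript with the highest mean in place of the sum, a 1.5-fold step and other filters. The midpoint of the bounds, coverage per aligned base and a filter of 20 FPKM were added after the data were seen. The 5 medians of the 10 genes stayed within 1.5 times or 0.1 of their value under all of them, and 4 kept their sign. That between treated genotypes, near 0, went from -0.0062 to between 0.0008 and 0.0134 under 4 alternatives. Of 450 values of single members 433 stayed within the same limits and 10 changed sign, 7 of them in the p53-/- response. Of these, Utf1 (from -0.18 to 0.0159) and Dppa5a (from -0.11 to 0.18), both under quantile normalization in the p53-/- response, moved by more than 0.1 from a value above 0.1 in size. Quantile normalization moved the median of all genes in the p53+/+ response from 0.05 to -0.10 and that between treated genotypes from -0.02 to 0.09. With the filter of 20 FPKM the median of all genes was -0.14 in the p53+/+ and 0.01 in the p53-/- response. It was -0.03 between untreated and 0.14 between treated genotypes, and -0.12 in the difference of responses. Nanog in the p53+/+ response ranged from -1.61 to -1.41.

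Counts of members depended on the step. Median of ratios took the members lower in the p53+/+ response to 2, by adding Utf1 (-1.03), and TPM took those lower in untreated p53-/- cells to 1, Dppa2 (-1.06), where 5.85% of all genes were lower and 4.82% higher. At a 1.5-fold step 5 members were lower in the p53+/+ response (11.3% of all genes), 4 in untreated p53-/- cells (11.01%), 1 in treated p53-/- cells (23.4%), where 2 were higher (17.7%), and 4 in the difference of responses (13.8%). With no filter the share of all genes past the step in either direction was 8.22%, 0.486%, 3.86%, 11.5% and 8.00% in the p53+/+ and p53-/- responses, untreated and treated genotypes and the difference of responses. No replicate could be left out, and no paired analysis was possible because each group has 1 library.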
